A study of Homo sapiens with 16 samples.

Results

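The mRNAs of the respiratory chain come from both the mitochondrial and the nuclear genome, and their levels were compared in Molm14 cells given inhibitors of DOT1L and EZH2. The members were all rows of the expression table that map to protein-coding genes with symbols of the respiratory complexes. They are 13 genes of the mitochondrial genome (MT-ND, MT-CO, MT-ATP and MT-CYB) and 88 nuclear genes (NDUFA, NDUFB, NDUFC, NDUFS and NDUFV, SDHA to SDHD, UQCR and CYC1, COX4 to COX8, and ATP5), without the NDUFAF assembly factors. These are 101 of 22445 rows. By complex they are 7 mitochondrial and 40 nuclear genes for complex I, 0 and 4 for complex II, 1 and 10 for complex III, 3 and 13 for complex IV, and 2 and 21 for complex V. COX4I2, COX6A2, COX7B2 and COX8C also fit the rule and were not analysed here, having no row in the table. Of the 101 genes, 100 reached the level needed for testing, which was more than 1 normalised count in 4 libraries or more. NDUFC2-KCTD14, a readthrough gene, did not, with 20.7 normalised counts in iDOT1L 4 and 0 in the other libraries.

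Molm14 is an established line of acute myeloid leukaemia with a rearranged KMT2A gene, and every library comes from this single line. The 4 groups of 4 libraries are Combo (EPZ5676 at 0.16 uM together with GSK126 at 0.3 uM), iDOT1L (EPZ5676 at 0.16 uM alone), iEZH2 (GSK126 at 0.3 uM alone) and DMSO. EPZ5676 inhibits the histone methyltransferase DOT1L and GSK126 inhibits EZH2, the methyltransferase of a Polycomb complex. Treatment lasted 7 days, with medium and compound renewed on day 4, while the labels' note on extraction times the RNA from a sort, 3 days earlier. Nothing in the labels shows that replicates were cultured apart, so the p-values cover the spread among these libraries, which may be technical.

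The respiratory chain passes electrons from NADH and succinate through complexes I to IV to oxygen, pumps protons across the inner mitochondrial membrane, and lets complex V, the ATP synthase, use their return to make ATP. Mitochondrial DNA encodes hydrophobic core subunits of complexes I, III, IV and V, transcribed from both strands as long precursors that are cut into single mRNAs. All other subunits, including the whole of complex II, are made from nuclear genes and imported.

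Library depth, estimated from the steps between low values, was 20.7 to 27.2 M reads per library (M for mega). The leukaemia markers PTPRC, CD33 and FLT3 were present in every library, at 717 normalised counts or more, and MS4A1, of B cells, stayed at or below 9.16. The myeloid genes LYZ and MPO differed with treatment, LYZ averaging 15958 normalised counts in Combo, 9051 in iDOT1L, 4274 in iEZH2 and 2463 in DMSO, and their part in the results was not tested. Transcript length moved with the libraries. The slope of a library's log2 deviation per doubling of transcript length was -0.0740 in Combo 1 and 0.0503 in Combo 2, and it was 0.0430, 0.0414 and 0.0472 in the libraries numbered 1 of iDOT1L, iEZH2 and DMSO. Nuclear respiratory chain genes have short transcripts, with a median of 861 bases, against 2872 for protein-coding genes with a mean count of at least 10.

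Per kilobase of transcript, the mitochondrial mRNAs were far above the nuclear ones. Their median level over all libraries was 43549 normalised counts per kilobase, against 2213 for the nuclear genes. MT-CO1, the catalytic subunit of complex IV, was highest at 120324 per kilobase, and MT-ND4L of complex I was lowest of the 13 at 11882. The highest nuclear gene, ATP5F1B, the catalytic beta subunit of the ATP synthase, reached 16583 per kilobase, above MT-ND4L and below the other mitochondrial mRNAs. Within complexes the nuclear genes with the highest level per kilobase were NDUFS5 (4741, complex I), SDHA (2657, complex II), UQCRH (10447, complex III) and COX4I1 (12730, complex IV). The lowest were NDUFC2-KCTD14 (1.97, complex I), SDHC (305, complex II), UQCRHL (10.7, complex III), COX6B2 (7.36, complex IV) and ATP5MGL (8.25, complex V). Values per kilobase rest on the annotated transcript length chosen for each gene. SDHC ranks lowest through a length of 13566 bases, since its mean of 4137 normalised counts was above SDHB (1615) and SDHD (3604). COX6B2, a testis isoform, had at most 43.8 normalised counts in any library, and COX7A1, a muscle isoform, averaged 16.1 ± 4.31 in Combo and 21.6 ± 9.90 in DMSO. NDUFA4L2, a homologue of NDUFA4 known from hypoxia, averaged 95.3 ± 12.7 in Combo and 102 ± 17.8 in DMSO. NDUFA6, an accessory subunit of complex I, was listed at only 5.88 to 13.5 normalised counts over the 16 libraries.

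Summed over the 13 mRNAs, the mitochondrial set held 697, 598, 812 and 795 kilocounts (1000 normalised counts each) in Combo, 419, 560, 627 and 657 kilocounts in iDOT1L, 428, 558, 741 and 723 kilocounts in iEZH2, and 388, 467, 548 and 584 kilocounts in DMSO. All 4 Combo libraries were above all 4 DMSO libraries, and both single treatments overlapped Combo and DMSO. Group means were 726 ± 98.9 kilocounts in Combo, 566 ± 106 kilocounts in iDOT1L, 612 ± 148 kilocounts in iEZH2 and 497 ± 87.6 kilocounts in DMSO (SD, n = 4 each). As a share of all normalised counts this was 2.66% to 3.54% in Combo, 1.80% to 2.83% in iDOT1L, 1.85% to 3.20% in iEZH2 and 1.66% to 2.50% in DMSO.

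The nuclear set differed less between groups. Its sum was 306, 247, 269 and 270 kilocounts in Combo, 227, 254, 253 and 264 kilocounts in iDOT1L, 234, 266, 279 and 264 kilocounts in iEZH2, and 226, 258, 243 and 252 kilocounts in DMSO. Combo 2 lay below DMSO 2 and DMSO 4, so the sums of these groups overlapped. The ratio of the mitochondrial to the nuclear sum was 2.28 to 3.02 in Combo, 1.85 to 2.49 in iDOT1L, 1.83 to 2.74 in iEZH2 and 1.72 to 2.32 in DMSO, and these ranges overlap too. The library numbered 1 held the lowest level of all 13 mitochondrial mRNAs in iDOT1L, in iEZH2 and in DMSO, and in Combo 11 of the 13 were lowest in Combo 2. In bulk RNA, fewer cells with a transcript and less RNA per cell cannot be told apart, and neither can the number of mitochondrial genomes and the RNA made from each.

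Split by complex, the mitochondrial sums differed more between Combo and DMSO than the nuclear sums of the same complex. Complex I held 274 ± 26.7 in Combo and 188 ± 27.5 in DMSO kilocounts from its mitochondrial genes, and 68.6 ± 5.45 in Combo and 61 ± 3.93 in DMSO from its nuclear genes (SD, n = 4 each). Complex III held 37.7 ± 5.11 in Combo and 22.7 ± 3.41 in DMSO from MT-CYB, and 36.5 ± 3.61 in Combo and 33.2 ± 1.78 in DMSO from nuclear genes. Complex IV held 355 ± 61 in Combo and 250 ± 51.8 in DMSO from mitochondrial genes, and 48.6 ± 6.4 in Combo and 40.9 ± 2.01 in DMSO from nuclear genes. The ATP synthase and complex II complete the set. The ATP synthase held 59.7 ± 6.31 in Combo and 35.7 ± 5.72 in DMSO from mitochondrial genes, and 104 ± 8.06 in Combo and 93.5 ± 5.6 in DMSO from nuclear genes, while complex II, all nuclear, held 15.7 ± 1.07 in Combo and 15.9 ± 0.995 in DMSO.

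**Figure D1:**
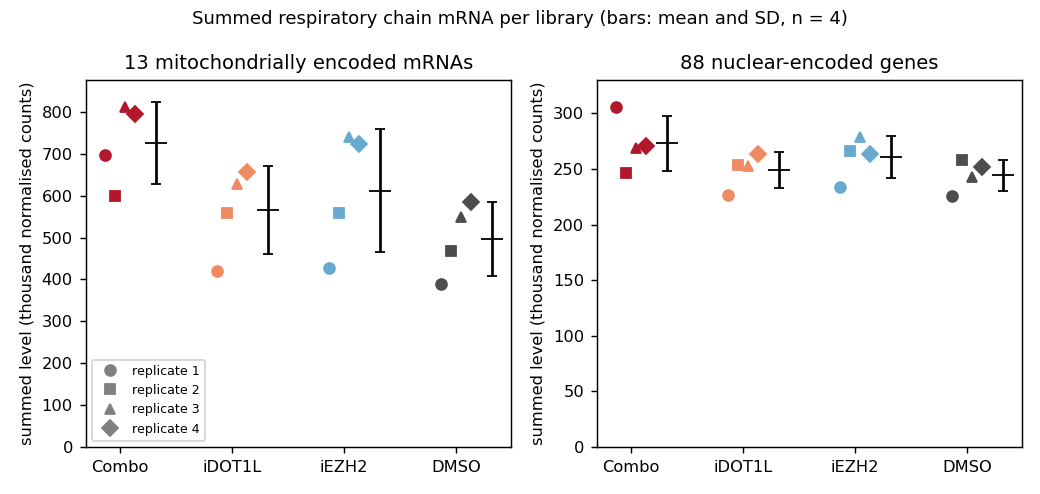
Summed normalised counts (in units of 1000, kilocounts) of the 13 mitochondrially encoded mRNAs (left) and the 88 nuclear-encoded genes (right) in each library, with marker shape giving the replicate number and bars the mean and SD of 4 libraries. The 4 Combo libraries sit at 598 to 812 kilocounts for the mitochondrial set, above the DMSO range of 388 to 584 kilocounts, while the nuclear sums of Combo and DMSO overlap.

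With Combo against DMSO, 11 of 13 mitochondrial mRNAs rose and none fell. The median log2 fold change of the 13 was 0.62, with a range of 0.40 to 0.76, against a median of 0.03 over all genes tested. In this comparison 16% of the 22331 genes tested were called (limma, Benjamini-Hochberg adjusted p under 0.05), 7.22% higher and 8.80% lower in Combo. The same 11 mRNAs had every Combo library above every DMSO library, which held for 9.62% of all genes tested. The 13 mRNAs share precursors and libraries, so they are not 13 separate observations.

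Complex III has a single mitochondrial gene, MT-CYB (ENSG00000198727, chrM:14747-15887, GRCh38, plus strand), which encodes cytochrome b. MT-CYB had 35182, 31686, 42617 and 41135 normalised counts in Combo, against 18208, 21998, 24700 and 25902 in DMSO. The lowest Combo library was above the highest DMSO library. The log2 fold change was 0.73 ± 0.17 (SE; limma adjusted p = 0.00644). Its 4 iDOT1L libraries held 19729.9 to 30317 and its 4 iEZH2 libraries 20370.4 to 35106, overlapping DMSO in both cases. Only 5.0% of the 31-base words of MT-CYB occur in other genes.

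Of the 3 mitochondrial genes of complex IV, MT-CO2 and MT-CO3 rose and MT-CO1 did not pass. MT-CO2, the subunit that takes electrons from cytochrome c, had 59559.7, 45853, 67180.5 and 65906 normalised counts in Combo and 27835, 33216, 38234 and 41819 in DMSO, with no overlap (log2 fold change 0.76 ± 0.20, limma adjusted p = 0.0149). Without DMSO 1 its adjusted p was 0.0522. MT-CO3 averaged 81390.5 ± 9939 in Combo and 52334 ± 7588 in DMSO (0.64 ± 0.16, adjusted p = 0.0123). MT-CO1 had 194397, 162789, 249116 and 248008 in Combo, against 120949, 139969, 185264 and 203975 in DMSO. Its Combo and DMSO libraries overlapped and the test was not passed (0.40 ± 0.23, adjusted p = 0.275). MT-CO1 was still higher in Combo at each replicate number. With that number as a block all 3 genes were called higher, where 11.3% of all genes were. Not every number pairs Combo with DMSO by the check used.

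Complex V takes 2 subunits of its membrane part from the mitochondrial genome, and their reading frames overlap. MT-ATP6 (chrM:8527-9207), the subunit through which protons pass, had 45844, 40538, 51382 and 50032 normalised counts in Combo and 21899, 28209.9, 30004 and 31691 in DMSO (log2 fold change 0.76 ± 0.18, limma adjusted p = 0.00689). MT-ATP8 (chrM:8366-8572) had 12040, 11108, 14446 and 13349.5 in Combo and 5789.6, 7747, 7874 and 9397 in DMSO (0.74 ± 0.19, adjusted p = 0.0109). No Combo library of either gene fell within the DMSO range. The overlap is shown because a read inside it belongs to both genes, with the 46 shared bases (chrM:8527-8572, GRCh38, plus strand) in capitals inside a stretch that begins at base 8507 and ends at base 8592.
MT-ATP8 and MT-ATP6: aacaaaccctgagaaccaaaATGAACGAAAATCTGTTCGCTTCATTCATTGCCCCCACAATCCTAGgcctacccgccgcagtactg
The capitals open with the start codon of MT-ATP6. Levels of MT-ATP8 and MT-ATP6 are therefore not measured independently. MT-ND4L and MT-ND4, both of complex I, overlap over only 7 bases (chrM:10760-10766), too few to hold a shared word of 31 bases.

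Complex I draws 7 subunits from mitochondrial DNA, the ND proteins of its membrane arm. Of these 6 rose with Combo, by 0.45 ± 0.11 (MT-ND5) to 0.72 ± 0.19 (MT-ND2) on the log2 scale, and MT-ND1 did not pass. MT-ND3 had 14236, 11469.7, 13821 and 14146 normalised counts in Combo, against 7534, 8959.9, 9339 and 9786 in DMSO (log2 fold change 0.59 ± 0.13, limma adjusted p = 0.00284). MT-ND6 (chrM:14149-14673, minus strand) is the only mRNA of the 13 on the minus strand of the reference. It had 20464, 17737, 17955 and 17696 in Combo and 11338, 13767, 12978 and 12704 in DMSO (0.54 ± 0.11, adjusted p = 0.00248). Neither MT-ND3 nor MT-ND6 overlapped between the groups. Whether strand was kept is not given in the sources used here, and without it reads of MT-ND6 and of the opposite strand cannot be told apart. MT-ND1 had 58453, 48445, 76979.5 and 75070.5 in Combo, against 34024, 40375, 58732 and 58909.7 in DMSO. Combo 1 and Combo 2 lay within the DMSO range, and the fold change was 0.45 ± 0.26 (adjusted p = 0.285). MT-ND1 was still higher in Combo at each replicate number. With that number as a block all 7 genes were called higher, where 11.3% of all genes were.

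**Figure D2:**
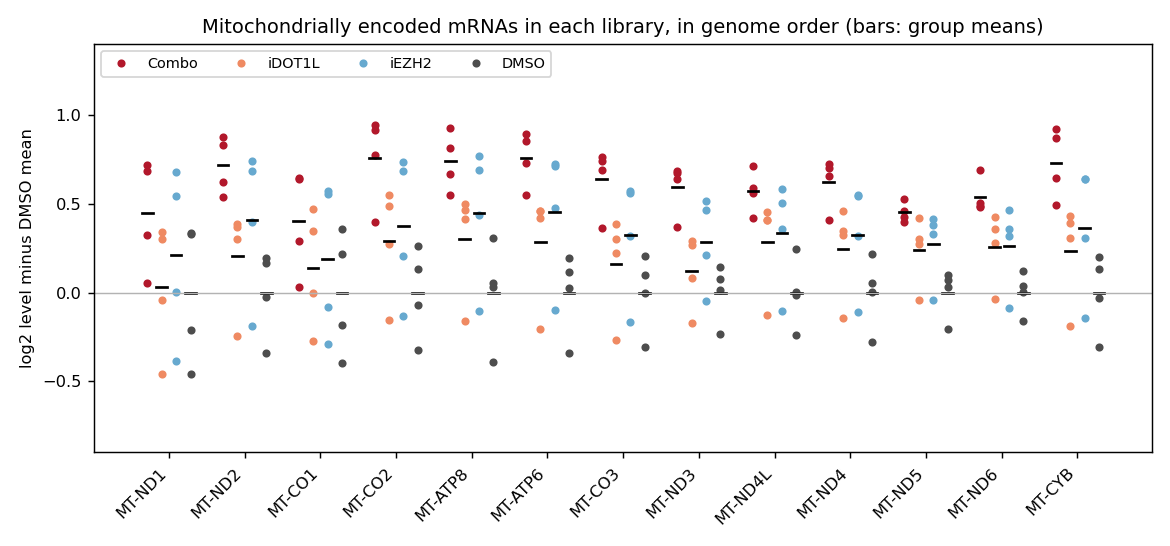
Log2 level of each mitochondrially encoded mRNA in each library, relative to the mean of the 4 DMSO libraries, with genes in genome order and black bars at group means. Combo libraries lie above all DMSO libraries for 11 genes and overlap them for MT-ND1 and MT-CO1.

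The mixture of mitochondrial mRNAs also differed between Combo and DMSO for some genes. MT-CO1 made up 27.2% to 31.2% of the mitochondrial sum in Combo and 30.0% to 34.9% in DMSO, which overlap. MT-ATP6 made up 6.29% to 6.78% in Combo and 5.42% to 6.04% in DMSO, and MT-ND2 made up 5.37% to 5.90% in Combo and 4.68% to 5.13% in DMSO. For these 2, for MT-CO2, MT-CYB and MT-ATP8, 5 genes in all, every Combo share lay above every DMSO share, and the other 8 overlapped. These shares are a description with no test.

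Nuclear copies of mitochondrial genes limit how exactly the reads can be assigned. Of the 13 mRNAs, 9 share over 20% of their 31-base words with other genes, up to 66.7% for MT-CO1, and the median was 30.7%. The 58 copies that were measured summed to 0.632% to 0.829% of the sum of all 13 mRNAs in a library. MTATP6P1 on chromosome 1, the copy that shares most words with MT-ATP6, averaged 4880 ± 609.5 normalised counts in Combo and 2794 ± 519.8 in DMSO (0.82 ± 0.18, limma adjusted p = 0.00484). MT-ATP6 itself averaged 46949 ± 4881 in Combo and 27951 ± 4278 in DMSO. Other genes hold 63.7% of its words, so the split of reads between MT-ATP6 and MTATP6P1 is uncertain.

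Among 87 nuclear genes tested, 16 rose with Combo against DMSO, 1 fell and 70 did not pass. The median log2 fold change of the 87 was 0.19 and 71 were above 0, against a median of 0.03 over all genes tested. The 16 that rose compare with 7.22% of all genes tested, and the 1 that fell with 8.80%. By complex 6 of 39 tested rose in complex I, 0 of 4 in complex II, 2 of 10 in complex III, 3 of 13 in complex IV and 5 of 21 in complex V, where the 1 fall also lies. Combo libraries were all above DMSO for 19 nuclear genes and all below for 2, against 9.62% and 10.3% of all genes tested.

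**Figure D3:**
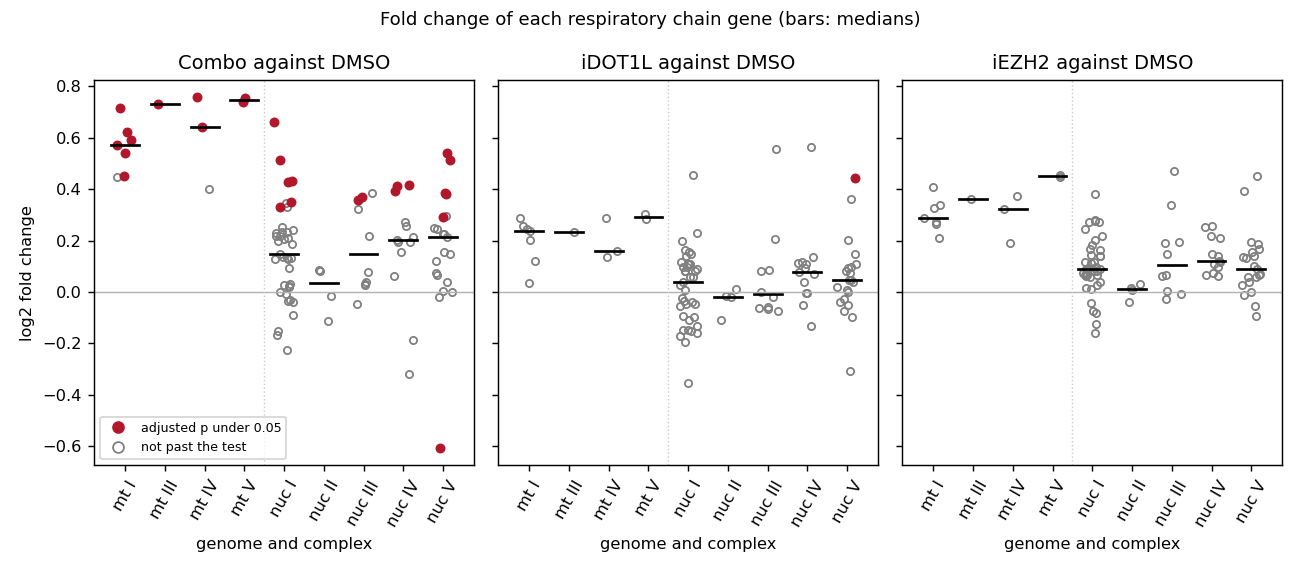
Log2 fold change of each tested respiratory chain gene with Combo, iDOT1L and iEZH2 against DMSO, by genome (mt, nuc) and complex, with filled points past the test and bars at medians. Filled points are 11 mitochondrial and 17 nuclear genes with Combo, 1 nuclear gene with iDOT1L and none with iEZH2.

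NDUFA4 (ENSG00000189043, chr7:10931951-10940256, GRCh38) had the lowest adjusted p of the nuclear set. It was named as a subunit of complex I and is now known as a subunit of complex IV. Complexes were assigned here by symbol, so the sums and counts by complex keep NDUFA4 in complex I. NDUFA4 had 3234, 2488, 2630.1 and 2488 normalised counts in Combo, against 1528, 1681, 1877 and 1741 in DMSO, with no overlap. Its log2 fold change was 0.66 ± 0.12 (limma adjusted p = 0.000575). The gene had 1593, 1997, 2226 and 2241 in iDOT1L, and 1872, 2336, 2323 and 2385 in iEZH2. Both single treatments reached above the DMSO range in most libraries without passing the test (0.23 ± 0.12 and 0.38 ± 0.12).

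COX7C, COX6C and COX7B, small structural subunits of complex IV, rose with Combo as well. COX7C had 6607, 4665, 5270.1 and 5489 normalised counts in Combo and 4019, 4075, 4167 and 4168 in DMSO (log2 fold change 0.41 ± 0.09, limma adjusted p = 0.00364). COX6C averaged 3282 ± 455 in Combo and 2448 ± 172 in DMSO (0.42 ± 0.11, adjusted p = 0.014), and COX7B 2256 ± 305 in Combo and 1711 ± 131 in DMSO (0.39 ± 0.11, adjusted p = 0.0237). For all 3 genes every Combo library was above every DMSO library. COX4I1, the abundant subunit IV, averaged 9827 ± 1449 in Combo and 8512 ± 223 in DMSO and did not pass (0.20 ± 0.08, adjusted p = 0.129).

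In the ATP synthase, ATP5F1E, ATP5MC1, ATP5MPL, ATP5MG and ATP5PO rose. Other genes hold 66.3% of the 31-base words of ATP5PO, mainly AP000311.1, and 20.5% of those of ATP5MG, so these levels are uncertain. ATP5F1E, the epsilon subunit of the catalytic head, had 3570.4, 2657, 2828 and 2428 normalised counts in Combo and 1724, 2169, 2017 and 2067 in DMSO, with no overlap (log2 fold change 0.52 ± 0.11, limma adjusted p = 0.00252). The other 4 subunits of the head lay between -0.02 ± 0.07 (ATP5F1C) and 0.23 ± 0.10 (ATP5F1D) and did not pass. Of the ATP5F1E words 23.3% occur elsewhere, mainly in TUBB1, so its level is uncertain. ATP5MC1, which with ATP5MC2 and ATP5MC3 encodes the c subunit of the rotating ring, had 2247, 2077, 2042 and 2069.8 in Combo and 1287, 1816, 1324 and 1419 in DMSO, with no overlap (0.54 ± 0.13, adjusted p = 0.00839). ATP5MC2 and ATP5MC3 differed by 0.24 ± 0.10 and 0.15 ± 0.10 and did not pass. ATP5MF-PTCD1, a readthrough of the f subunit gene, had 158, 175, 199.8 and 167 in Combo and 257, 249, 282 and 277 in DMSO, a fall without overlap (-0.61 ± 0.15, adjusted p = 0.00976). Other genes, mainly PTCD1, hold 98.9% of its words, so the fall cannot be assigned to the readthrough, and ATP5MF itself differed by 0.22 ± 0.12 without passing.

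Complex I has 7 nuclear core subunits that carry its flavin and iron-sulfur centres or bind quinone, and of these NDUFS8 alone was called with Combo (log2 fold change 0.35 ± 0.11, limma adjusted p = 0.0422). The lowest of the 7 was NDUFS1 (-0.23 ± 0.13, adjusted p = 0.259), and their median was 0.03. The remaining 32 tested genes of complex I include 5 that rose, namely NDUFA4 and the accessory subunits NDUFB9, NDUFA12, NDUFS6 and NDUFA3. NDUFB9 had 4101, 3407, 3869.7 and 3828 normalised counts in Combo and 2524, 3116, 2712 and 2973 in DMSO, with no overlap (0.43 ± 0.11, adjusted p = 0.0144). NDUFA3 was low, at 86.1 to 113 in Combo and 60.1 to 81.1 in DMSO, and 21.5% of its words occur elsewhere, mainly in TFPT.

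In complex III, UQCRB (log2 fold change 0.36 ± 0.10, limma adjusted p = 0.0215) and UQCR10 (0.37 ± 0.12, adjusted p = 0.0432), both small subunits around the catalytic core, rose. CYC1, which encodes cytochrome c1, had 6954, 6239, 6380 and 6501 normalised counts in Combo and 5880.4, 6855, 6557 and 6336 in DMSO, which overlap (0.03 ± 0.08, adjusted p = 0.874). Complex II, succinate dehydrogenase, has no mitochondrial gene and none of its 4 genes passed. SDHA, its flavoprotein, had 6383, 5942, 5923 and 6129 in Combo and 6112, 7111, 6418 and 6718 in DMSO (-0.11 ± 0.07, adjusted p = 0.299). SDHB, SDHC and SDHD differed by 0.08 ± 0.10, -0.01 ± 0.10 and 0.09 ± 0.08.

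**Figure D4:**
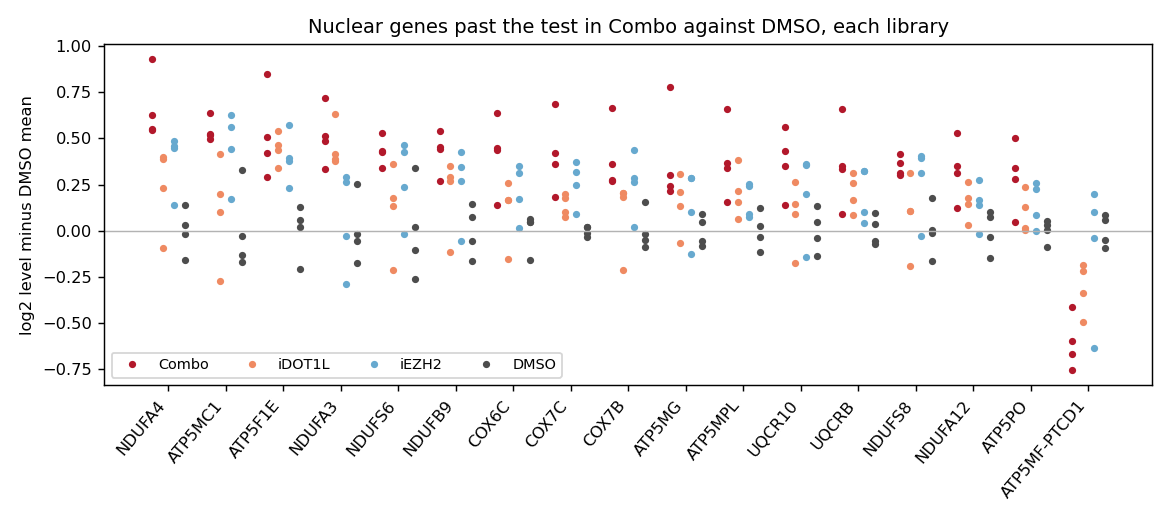
Log2 level of the 17 nuclear genes past the test with Combo against DMSO, in each library, relative to the mean of the 4 DMSO libraries. For 14 of the 16 genes that rose the highest Combo point belongs to Combo 1, and ATP5MF-PTCD1 is the gene that fell.

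Many of the nuclear calls were lost on leaving out a library, which also lowers the power of the test. NDUFS8 and ATP5PO kept the call in 1 of the 8 fits without 1 Combo or DMSO library. NDUFS6, NDUFA3 and UQCR10 kept it in 2. Of the 16 genes that rose, 14 had their highest Combo value in Combo 1, the library with the length slope of -0.0740. Leaving out Combo 1 kept 5 of them (ATP5F1E, ATP5MC1, COX7C, NDUFA4 and NDUFB9), and leaving out DMSO 1 kept the first 4 of these. Those 4 were called in each of the 8 fits that left out 1 Combo or DMSO library, as were 10 of the 11 mitochondrial mRNAs. With each library's trend on transcript length and GC content removed, where 16.8% of genes were called and 6.89% were higher, 11 mitochondrial mRNAs (median 0.51) and 6 nuclear genes (median of the 87 0.09) rose and 1 nuclear gene fell. Among the 911 protein-coding genes under 1 kilobase, members included, 12.8% rose with Combo and the median was 0.13, and of the 49 nuclear members that short 11 rose, with a median of 0.20. Without the 4 libraries numbered 1, an alternative chosen after these values were seen, 8 nuclear genes rose, where 6.01% of all genes did.

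**Figure D5:**
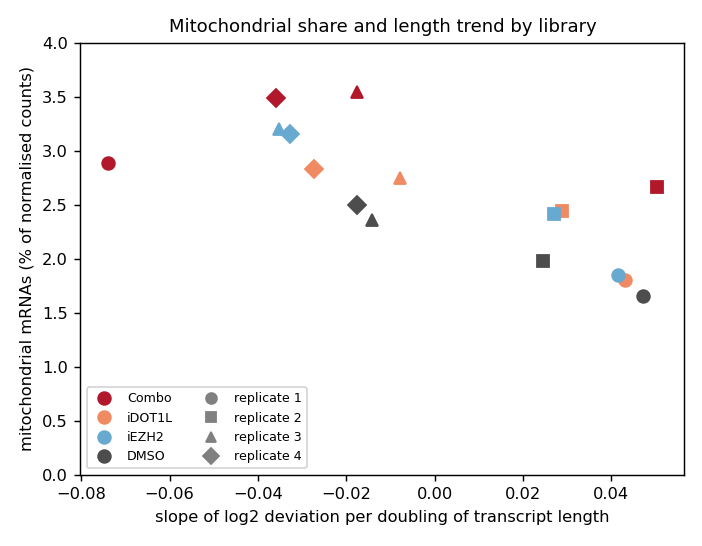
Share of normalised counts from the 13 mitochondrial mRNAs (%) against the slope of each library's log2 deviation per doubling of transcript length, with colour for group and shape for replicate number. In iDOT1L, iEZH2 and DMSO the library numbered 1 has the lowest share and a slope of 0.0414 to 0.0472, while Combo 1 has a slope of -0.0740 and a share of 2.89%.

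Promoters of nuclear respiratory chain genes are known for sites of the activators NRF1 and GABPA and of YY1. RefSeq promoters (250 bases before to 50 after the start, GRCh38.p14) were matched for 69 of the nuclear members. The NRF1 word, GCGCA and GCGC with any base between them, was searched on both strands and found in 16 of these promoters (23.2%), against 9.67% of 15843 protein-coding genes. GABPA's CCGGAAGT was in 12 (17.4%, against 6.97%) and YY1's AAGATGGCG in 9 (13%, against 3.21%). Of the 16 genes that rose with Combo 12 had a promoter in the table, and 5 of these held the NRF1 word, with none holding either of the other words. A match shows that the letters are there, not that a factor binds. The 60 bases around the word are printed for these 5 on the strand of the gene, with the word or its reverse complement in capitals, to show what the sites of these genes look like. They lie at chr12:95003779-95003838 (NDUFA12, minus strand), chr19:54102660-54102719 (NDUFA3, plus), chr22:29767336-29767395 (UQCR10, plus), chr14:103921512-103921571 (ATP5MPL, minus) and chr21:33915794-33915853 (ATP5PO, minus).
NDUFA12: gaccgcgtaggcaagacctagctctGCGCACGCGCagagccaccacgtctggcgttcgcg
NDUFA3: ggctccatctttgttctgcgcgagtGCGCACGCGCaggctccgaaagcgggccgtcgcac
UQCR10: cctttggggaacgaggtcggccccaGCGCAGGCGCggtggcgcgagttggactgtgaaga
ATP5MPL: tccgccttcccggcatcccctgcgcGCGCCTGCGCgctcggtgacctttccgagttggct
ATP5PO: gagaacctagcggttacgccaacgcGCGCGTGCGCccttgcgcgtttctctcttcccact
Relative to the RefSeq start the word begins at -116 (NDUFA12), -170 (NDUFA3), -8 (UQCR10), -17 (ATP5MPL) and -24 (ATP5PO). The RNAs of the factors themselves did not pass with Combo, at log2 fold changes of 0.05 ± 0.10 for NRF1, 0.01 ± 0.08 for GABPA and 0.07 ± 0.08 for YY1.

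Each single treatment was compared with the same 4 DMSO libraries. With iDOT1L against DMSO none of the 13 mitochondrial mRNAs was called by limma and 2 had an unadjusted p under 0.05, where 17.8% of all genes did. The median log2 fold change was 0.24 (range 0.03 to 0.30), against 0.01 over all genes tested. Of 87 nuclear genes 1 rose and none fell, with a median of 0.04, where 6.25% of all genes tested were called, 3.08% higher and 3.17% lower. That gene was ATP5F1E, with 2512, 2884, 2695 and 2742 normalised counts in iDOT1L and 1724, 2169, 2017 and 2067 in DMSO, all iDOT1L libraries being above all DMSO libraries (0.44 ± 0.11, adjusted p = 0.0167). The call was lost without iDOT1L 2 (adjusted p = 0.0527) or without DMSO 1 (adjusted p = 0.0663).

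Replicates of the same number deviated together between iDOT1L and DMSO and between iEZH2 and DMSO. With the number as a block, 12.2% of all genes were called with iDOT1L, 5.69% higher and 6.53% lower. MT-ND5 was then called higher (0.24 ± 0.06, limma adjusted p = 0.00896) and NDUFC1, an accessory subunit of complex I, lower (-0.35 ± 0.11, adjusted p = 0.0444), beside ATP5F1E (adjusted p = 0.00974). MT-ND5 had 41835, 57573, 53084 and 52034 normalised counts in iDOT1L and 37358, 46105, 45229 and 43958 in DMSO. It was higher with iDOT1L in each of the 4 numbers, as were 11 other mitochondrial mRNAs and not MT-ND1, while the groups overlapped. NDUFC1 had 743, 794, 782 and 815 in iDOT1L and 887, 1005, 1084 and 1036 in DMSO, without overlap.

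With iEZH2 against DMSO no respiratory chain gene was called by limma without the block, where 3.35% of genes tested were. At an unadjusted p under 0.05 there were 8 of 13 mitochondrial and 11 of 87 nuclear genes, where 15.7% of all genes were. Taken in either direction, the nuclear count is therefore not above the background. All 11 nuclear genes were higher with iEZH2, as were 1625 of the 3511 among all genes. The median log2 fold change was 0.33 for the mitochondrial mRNAs (range 0.19 to 0.45) and 0.09 for the nuclear genes, 76 of 87 being above 0, against 0.02 over all genes tested. With the block 9 mitochondrial mRNAs and 4 nuclear genes rose, where 9.76% of all genes were called and 3.87% were higher. MT-ATP6 had 25877, 38552, 45742 and 45351 normalised counts in iEZH2, against 21899, 28209.9, 30004 and 31691 in DMSO. Its groups overlapped only through iEZH2 1, and iEZH2 was higher in each of the 4 numbers, by 0.24 to 0.61 on the log2 scale (blocked fit 0.45 ± 0.10, adjusted p = 0.00778). The nuclear genes called with the block were ATP5MC1 (0.45 ± 0.10, adjusted p = 0.00695), ATP5F1E, NDUFA4 and NDUFV1, the subunit that binds NADH. Without iEZH2 1 and with no block, 7 mitochondrial mRNAs and 3 nuclear genes were called. Of all genes 4.68% were called in either direction and 1.59% higher, so the nuclear count is near the share for either direction.

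Combo was also set against each single treatment. Without the block no mitochondrial or nuclear gene was called by limma in Combo against iDOT1L, where 2.58% of all genes were. The same held in Combo against iEZH2, where 3.81% were. At an unadjusted p under 0.05 there were 9 of 13 mitochondrial and 16 of 87 nuclear genes in the first, where 16.6% of all genes were, and 3 and 4 in the second, where 15.4% were. Taken in either direction, the nuclear counts are near the background in the first and below it in the second. All 16 nuclear genes of the first were higher in Combo, as were 1703 of the 3715 among all genes. In the second 3 of the 4 nuclear genes were higher in Combo, as were 1706 of the 3438 among all genes. Median log2 differences of the mitochondrial mRNAs were 0.44 for Combo over iDOT1L and 0.30 for Combo over iEZH2, and those of the nuclear genes 0.14 and 0.06. MT-ND3 came closest in Combo against iDOT1L, with 11469.7 to 14236 normalised counts in Combo and 7878 to 10859 in iDOT1L, without overlap (0.47 ± 0.13, adjusted p = 0.053). With the block 11 mitochondrial and 6 nuclear genes were higher in Combo than in iDOT1L, where 3.78% of all genes were. Against iEZH2 5 mitochondrial genes were then higher and 2 nuclear genes lower, where 4.33% and 5.24% of all genes were. Not every replicate number pairs Combo with these treatments by the check used.

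In iDOT1L against iEZH2, where 6.94% of genes tested were called and 3.06% were lower, NDUFA9 was the only member to pass. NDUFA9, an accessory subunit of complex I, had 1248, 1526, 1459 and 1369 normalised counts in iDOT1L and 1639, 2025, 2066 and 1773 in iEZH2, without overlap (log2 fold change -0.42 ± 0.11, limma adjusted p = 0.0306). The adjusted p was 0.0561 to 0.115 without iDOT1L 1, 3 or 4 or iEZH2 2 or 3, and 0.0856 with the length and GC trend removed. With the replicate number as a block, where 14.3% of genes were called and 6.91% were lower, UQCRQ (-0.40 ± 0.12, adjusted p = 0.0291) and ATP5MC1 (-0.34 ± 0.10, adjusted p = 0.0278) were lower too. No mitochondrial mRNA was called, at a median of -0.13, and none had an unadjusted p under 0.05, where 19.3% of all genes did.

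Additivity was tested as Combo minus iDOT1L minus iEZH2 plus DMSO. No gene of the 22331 passed by limma (0%), and 848 (3.80%) had an unadjusted p under 0.05, among them 0 mitochondrial and 2 nuclear members (NDUFC1 and ATP5F1E). Interaction terms of the mitochondrial mRNAs ran from -0.06 ± 0.15 (MT-ND5) to 0.20 ± 0.37 (MT-ND1) on the log2 scale, with a median of 0.08. For MT-CYB the term was 0.14 ± 0.24, beside fold changes of 0.23 ± 0.17 with iDOT1L and 0.36 ± 0.17 with iEZH2.

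Genes that build and run the chain were counted from lists, to be read against the 7.22% of all genes tested that rose and the 8.80% that fell with Combo. Of 55 assembly factors 8 rose with Combo against DMSO and 1 fell (median 0.11). COX20, a chaperone of newly made MT-CO2, averaged 1580.3 ± 206 normalised counts in Combo and 952 ± 106 in DMSO (log2 fold change 0.73 ± 0.13, limma adjusted p = 0.000557). NDUFAF6 and COA1, assembly factors of complexes I and IV, rose by 0.53 ± 0.11 and 0.38 ± 0.08. COX20 also rose with iDOT1L alone (0.58 ± 0.13, adjusted p = 0.00897) and COA1 with iEZH2 alone (0.33 ± 0.08, adjusted p = 0.0302), where 3.08% and 1.30% of all genes rose, and they were the only calls of this list there without the block. With the replicate number as a block, 5 assembly factors were higher with iEZH2 (NDUFAF6, COA1, UQCC3, COX20 and HIGD1A), where 3.87% of all genes were. COX20 was then higher and CMC1 lower with iDOT1L, where 5.69% and 6.53% of all genes were.

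Of 19 genes of mitochondrial DNA transcription and maintenance 2 rose with Combo and none fell (median 0.05), a share near that of all genes. The mitochondrial topoisomerase TOP1MT averaged 3689.8 ± 117 normalised counts in Combo and 2831 ± 39.6 in DMSO (log2 fold change 0.38 ± 0.07, limma adjusted p = 0.000592), and MTERF3, of the mitochondrial transcription termination factor family, rose too (0.46 ± 0.14, adjusted p = 0.0251). The mitochondrial RNA polymerase POLRMT averaged 2323 ± 299 in Combo and 1913 ± 194 in DMSO and did not pass (0.28 ± 0.14, adjusted p = 0.191). TFAM, which packages mitochondrial DNA and activates its promoters, averaged 3877 ± 395 in Combo and 3889.5 ± 643 in DMSO (adjusted p = 0.99), and TFB2M differed by -0.05 ± 0.11. TOP1MT rose with iDOT1L (0.39 ± 0.07, adjusted p = 0.00113) and MTERF2 with iEZH2 (0.66 ± 0.18, adjusted p = 0.0492), where 3.08% and 1.30% of all genes rose. The block called the same single gene in each, where 5.69% and 3.87% of all genes were higher.

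Of 21 tested genes of mitochondrial RNA processing and stability 1 rose and 2 fell with Combo (median -0.05), near the shares of all genes in both directions. LRPPRC, which binds and stabilises mitochondrial mRNAs, averaged 10419.8 ± 952 normalised counts in Combo and 13623 ± 1942 in DMSO, a fall (log2 fold change -0.38 ± 0.12, limma adjusted p = 0.0397). PTCD3, a protein of the small mitochondrial ribosome subunit, fell (-0.35 ± 0.08, adjusted p = 0.00395), and HSD17B10, a subunit of mitochondrial RNase P, rose (0.38 ± 0.10, adjusted p = 0.0111). Of 14 regulators of respiration PPRC1, a coactivator related to PGC-1, was the only call (0.52 ± 0.12, adjusted p = 0.00383), and the median was 0.07. PPARGC1A itself averaged 10.1 ± 4.55 counts in Combo and 2.52 ± 2.03 in DMSO and did not pass (adjusted p = 0.088), nor did PPARGC1B (0.38 ± 0.20, adjusted p = 0.221) or ESRRA (0.16 ± 0.14, adjusted p = 0.516). Neither list had a call with iDOT1L or iEZH2 without the block. With the block LRPPRC was lower (adjusted p = 0.00191) and PPARGC1B higher (adjusted p = 0.0457) with iDOT1L, where 6.53% and 5.69% of all genes were. PNPT1, ELAC2 and PPRC1 were then higher with iEZH2 (adjusted p of 0.0422, 0.0224 and 0.00748), where 3.87% of all genes were.

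Of 18 genes of the TCA cycle, which supplies the chain with NADH and succinate, none rose and 1 fell with Combo, DLD (log2 fold change -0.29 ± 0.08, limma adjusted p = 0.0243), a subunit shared by its dehydrogenases. Among 17 genes of electron carriers and coenzyme Q synthesis 2 rose and 3 fell, against 7.22% and 8.80% of all genes. COQ8A of coenzyme Q synthesis rose (0.26 ± 0.08, adjusted p = 0.0264), while its paralogue COQ8B (-0.32 ± 0.09, adjusted p = 0.017) and GPD2, the mitochondrial glycerophosphate dehydrogenase (-0.64 ± 0.19, adjusted p = 0.0235), fell. SUCLG2 (-0.26 ± 0.07, adjusted p = 0.0266), GPD2 (-0.67 ± 0.19, adjusted p = 0.0378) and PDSS2 (-0.36 ± 0.10, adjusted p = 0.0455) fell with iDOT1L, where 3.17% of all genes fell. With iEZH2 none of the genes of these 2 lists was called without the block. With the block DLAT was lower as well with iDOT1L (adjusted p = 0.0392), where 6.53% of all genes were lower. IDH3A of the TCA cycle and COQ4, COQ7 and DHODH of the other list were then higher with iEZH2 (adjusted p of 0.0148 to 0.0338), where 3.87% of all genes were.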

How the data were processed

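RNA of 16 Molm14 libraries was sequenced, and the submitters' processing notes name kallisto, DESeq2 and hg38, without versions. The deposited table holds log2 values of the form that the authors' DESeq2 gives after variance stabilisation, and that form was assumed. Its inverse, with the lowest value (6.28106) taken as a count of 0, gave the normalised counts printed, which rest on both assumptions. Between 67.8% and 71.6% of low values then lay within 0.1 read of a whole number, so no count test was run. Genes above 1 normalised count in at least 4 libraries (22331) were tested with limma 3.58.1 (R 4.3.3, trend and robust moderation) on log2(count + 1), over 4 group means with 12 residual degrees of freedom, and Benjamini-Hochberg adjusted over all of them at 0.05. This was first tested on simulated data. Fold changes are on that scale and understate those of low genes. Symbols, positions and lengths come from GENCODE release 29 (20784 IDs matched, 1661 not). The members, lists and tests were chosen with earlier results of these data known. Genes named were the 13 mitochondrial mRNAs, fixed regulators, tissue isoforms, the SDH genes and CYC1, the extremes per kilobase in each complex, up to 8 called nuclear genes in each direction by adjusted p, and up to 3 called genes of a list. NDUFS8, NDUFA12, NDUFA3, NDUFS6, COX7B, UQCR10, ATP5MG, ATP5PO and any other gene outside that rule, those called only with the block included, were added after their values were seen. Deviations of libraries with the same number correlated above 0.1, the line set for pairing, in every pair for iDOT1L with DMSO (0.138 to 0.459). So did those for iEZH2 with DMSO (0.125 to 0.501) and iDOT1L with iEZH2 (0.158 to 0.577). Pairs with Combo were all positive, and some fell below that line. They ran from 0.0334 to 0.361 with DMSO, 0.0882 to 0.400 with iDOT1L and 0.0896 to 0.436 with iEZH2. What the number stands for is not in the labels. No intervals from counts are given, since depth is an estimate.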

Additional observations from a re-analysis of the deposited data

Results flagged for a closer look

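In 13 of 156 group values, 1 library stood apart from the other 3 by Dixon's criterion at the 95% level, where chance gives about 1 in 20. The values examined were those of named genes, the mitochondrial sum, the nuclear sum and the ratio of these sums, and all 13 were of genes. In Combo these were MT-ND3 at 11470 normalised counts in replicate 2 (others 13820 to 14240), and, in replicate 1, MT-ND6 at 20460 (others 17700 to 17960), ATP5MC1 at 2247 (others 2042 to 2077) and ATP5MG at 5298 (others 3587 to 3823). In iDOT1L, replicate 1 was low for MT-ND2 at 20520 (others 30000 to 31790), MT-ND4L at 2582 (3733 to 3862), MT-ATP6 at 24030 (37010 to 38060), MT-ATP8 at 6798 (10100 to 10720), CYC1 at 5383 (6283 to 6348) and COX7B at 1475 (1941 to 1968). NDUFA3 was high in iDOT1L replicate 3 at 106 (88.6 to 91.0). In iEZH2 replicate 1 NDUFA4 was low at 1872 (2323 to 2385), and in DMSO replicate 1 COX6C was low at 2191 (2521 to 2553). Of the 13, 11 are libraries numbered 1.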

How the results depend on the processing

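Calls changed most with the replicate block and with leaving out a library. Beside the block values in the results, the fit with the block called 28 nuclear members (26 higher) in Combo against DMSO, where the numbers do not pair the samples by the check used, with all 16 genes that rose kept and 13 mitochondrial mRNAs called, where 24.6% of all genes were called. It called 11 mitochondrial and 6 nuclear members in Combo against iDOT1L, where 10.0% of all genes were called. In Combo against iEZH2 it called 5 mitochondrial and 2 nuclear members, where 9.57% were. It called 2 nuclear (1 of them lower) and 1 mitochondrial with iDOT1L (12.2% of all genes). It called 4 and 9 with iEZH2 (9.76%), and 3 nuclear in iDOT1L against iEZH2 (14.3%). The block with the length and GC correction called 3 nuclear and 1 mitochondrial with iDOT1L (13.8% of all genes) and 6 and 7 with iEZH2 (10.9%). It called 8 and 11 in Combo against iDOT1L (10.2%), 2 and 8 in Combo against iEZH2 (10.6%), and 5 nuclear in iDOT1L against iEZH2 (15.3%). In the lists, with Combo against DMSO the block called 13 assembly factors higher and 1 lower, 4 genes of mitochondrial DNA transcription higher, 2 higher and 3 lower of mitochondrial RNA processing, 3 higher and 2 lower of the regulators, 3 higher and 3 lower of the TCA cycle and 4 higher and 4 lower of the electron carriers, where 11.3% of all genes were higher and 13.3% lower.

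The length and GC correction without the block left 7 nuclear members called with Combo (16.8% of all genes), 2 with iDOT1L (7.20%) and 0 in iDOT1L against iEZH2 (7.22%). The fit to only the groups compared called 2 nuclear members with iDOT1L. A filter at a mean count of 10, TMM scaling or scaling to the total without mitochondrial genes each called 1 nuclear member with iEZH2, and the filter also 1 nuclear and 1 mitochondrial member in Combo against iDOT1L. Without the 4 libraries numbered 1, the nuclear calls were 9 with Combo (13.6% of all genes), 3 with iDOT1L, 6 with iEZH2 and 3 in iDOT1L against iEZH2. The mitochondrial calls were then 2 with iDOT1L and 7 with iEZH2. Counts printed here without a share of all genes have none computed, so they do not show a change particular to the members.

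Leaving out 1 library at a time gave 5 (without DMSO 1) to 23 (without Combo 2) nuclear members for Combo against DMSO, with 6 without Combo 1, 8 without DMSO 3 and 10 without Combo 3, and 10 to 11 mitochondrial. It gave 0 to 1 nuclear with iDOT1L (0 without iDOT1L 2 or DMSO 1), 0 to 3 nuclear and 0 to 7 mitochondrial with iEZH2, 0 to 1 of each in Combo against iDOT1L, 0 to 1 nuclear in Combo against iEZH2 and 0 to 2 nuclear in iDOT1L against iEZH2. The share of all genes was computed only without iEZH2 1, at 4.68% with iEZH2. The other counts therefore do not show a change particular to the members. The cause of these changes was not tested.

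For called genes named in the text, 922 of 1121 repeats kept the direction and the call, 199 lost the call and none reversed. TMM scaling moved the median over genes with a mean count of at least 10 in Combo against DMSO to 0.02, and the mitochondrial median to 0.65. Depth is an estimate, and rows of few counts such as NDUFA6 and ATP5MGL can show only large changes.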
